A study of Homo sapiens with 18 samples.

Results

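The MYC, MAX and MXD network is a family of transcription factors that bind DNA as pairs through a basic helix-loop-helix leucine zipper. MAX is the shared partner. A MYC-MAX pair activates genes of growth and ribosome production, while the MXD proteins, MNT and MGA compete for MAX and repress the same kind of genes. All of these pairs prefer the E-box CACGTG. MLX is a MAX-like protein that pairs with some MXD proteins and with the glucose-sensing factors MondoA and ChREBP. MYC messenger RNA is known to be short-lived, and in breast epithelium MYC is a well known driver of proliferation. The genes were taken by gene ID, namely MYC, MYCL, MAX, MXD1, MXD3, MXD4, MXI1, MNT, MGA and MLX. They are 10 of 23604 genes listed in at least 1 RNA-Seq library, and all 10 were among the 16948 genes tested.

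All samples came from MCF10A-ErSrc, 1 established human breast epithelial line that carries a v-Src kinase fused to an estrogen receptor domain, which tamoxifen switches on. NT cells had no tamoxifen, while TAM cells had been transformed by 2 µM of it. Cultures of both kinds then received DMSO or 0.125 µM triptolide (TPL) for 4 h. TPL is a natural product that targets XPB, an ATPase within the transcription factor TFIIH, and the DMSO groups are called NT and TAM here and the treated groups NT + TPL and TAM + TPL. Poly-A RNA was sequenced in 8 libraries, 2 biological replicates per group, and RNA polymerase II (RNAPII) was mapped by ChIP-Seq, for which 1 peak list per condition was used. Levels are in FPKM (reads per kilobase of transcript scaled to the reads of the library), so genes can be compared per length, and a change shared by all genes of a library would not appear in them. With bulk RNA, fewer cells expressing a gene and less RNA per cell cannot be told apart.

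The libraries held 7461309 to 8349448 expected counts, the estimated reads per gene, and listed 18485 to 20156 genes. All 9 breast epithelial markers were listed, with a summed level of 17345 to 19180 FPKM in NT, 11095 to 14120 in NT + TPL, 7931 to 8254 in TAM and 4244 to 4630 in TAM + TPL cells, which is mostly keratin mRNA. Of the other cell types, fibroblast markers summed to between 4.23 and 12.9 FPKM, endothelial markers to between 0.46 and 1.73 with CDH5 at 0, and leukocyte markers to between 7.53 and 26.1. Within the last list ITGAM lay at 0.02 to 0.05 FPKM in the DMSO libraries and at 5.2 to 9.82 in the TPL libraries. The part of these shifts in the results was not tested. The replicates of each group correlated at 0.96 to 0.978 (Pearson's r of log2(FPKM + 1) across genes, which are not independent).

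The E-box itself was found in the promoters of 4 members. The window ran from 250 bases before to 50 bases after the transcription start site (TSS) of the Ensembl canonical transcript, and both strands were read for CACGTG, which is its own reverse complement. One match each stood in the windows of MAX, of MLX, 50 bases before the TSS, MNT, 193 bases before it, and MXD4, 238 bases before it. Of 19812 promoters of coding genes, 8.76% held this motif. Windows of MYC, MYCL, MXD1, MXD3, MXI1 and MGA had no CACGTG. The related words CATGTG (in 8.19% of promoters) and CACGCG (in 15.3%) were each found once, CATGTG in MYCL at 29 bases after the TSS and CACGCG in MGA at 21 bases before it. The 250 bases before the TSS of MLX, MNT and MXD4 are shown because they hold CACGTG, the E-box that pairs of the network prefer. They were read from GRCh37 on the strand of the gene, at chr17:40718868-40719117 (plus strand) for MLX, chr17:2304355-2304604 (minus) for MNT and chr4:2263837-2264086 (minus) for MXD4, and capitals mark CACGTG. Whether MYC or MAX occupied these sites was not measured.
MLX: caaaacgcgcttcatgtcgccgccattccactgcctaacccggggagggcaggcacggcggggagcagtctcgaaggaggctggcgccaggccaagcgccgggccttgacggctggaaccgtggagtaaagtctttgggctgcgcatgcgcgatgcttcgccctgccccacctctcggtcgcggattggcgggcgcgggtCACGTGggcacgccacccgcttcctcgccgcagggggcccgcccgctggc
MNT: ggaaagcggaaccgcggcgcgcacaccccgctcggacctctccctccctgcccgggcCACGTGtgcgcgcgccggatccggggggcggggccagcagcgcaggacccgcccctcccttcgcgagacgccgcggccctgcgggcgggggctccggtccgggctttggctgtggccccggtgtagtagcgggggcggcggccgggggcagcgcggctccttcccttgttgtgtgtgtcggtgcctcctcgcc
MXD4: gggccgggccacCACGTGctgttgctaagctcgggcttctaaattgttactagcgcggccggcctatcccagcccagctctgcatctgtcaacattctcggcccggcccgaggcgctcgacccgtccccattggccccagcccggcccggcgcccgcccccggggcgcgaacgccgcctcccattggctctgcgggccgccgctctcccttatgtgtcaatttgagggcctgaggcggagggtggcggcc

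MYC stood first among the 10 genes without TPL and lost that place with it. Its level was 532.07 and 622.7 FPKM in NT and 154.18 and 148.16 in TAM cells, against 26.77 and 15.04 in NT + TPL and 33.99 and 36.26 in TAM + TPL cells. No 2 of these groups overlapped, and the order from the highest was NT, TAM, TAM + TPL and NT + TPL. By rank among all genes listed in a library, MYC stood at 148 and 119 in NT, 408 and 441 in TAM, 1738 and 1663 in TAM + TPL, and 2358 and 3728 in NT + TPL. Its share of the counts went from 0.127 and 0.149% in NT to 0.00641 and 0.00361% in NT + TPL.

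The order of the other members shifted as well. Counted from the highest mean, MXI1 was number 8 in NT and 3 in NT + TPL cells, and MLX was number 3 and 7. MXD3, a repressor of the MXD group, was second in NT and TAM (means 62.5 and 73.3 FPKM) and first in NT + TPL and TAM + TPL (53.3 and 54.4 FPKM). In NT cells MXD3 was followed by MLX, MAX, MNT, MXD4, MXD1, MXI1, MGA and MYCL, and only MLX and MAX had overlapping libraries. In NT + TPL cells the libraries of MYC, MXI1, MXD4, MXD1, MAX and MLX overlapped from each gene to the next, with means from 20.9 FPKM for MYC to 14 FPKM for MLX. In TAM cells no neighbours overlapped, and the order was MYC, MXD3, MLX, MAX, MXD1, MXD4, MNT, MXI1, MGA and MYCL. In TAM + TPL cells MAX and MXD4 overlapped, at means of 13.1 and 11.8 FPKM. The files list MAX under a RefSeq accession as well as its gene ID, and with both entries summed MAX stood at 17.13 and 14.52 FPKM in TAM + TPL cells, where it overlapped MLX and no longer MXD4, and at 18.23 and 14.97 FPKM in NT + TPL cells, where it no longer overlapped MLX. MGA and MYCL were last or next to last in every group, at 2.57 FPKM or less.

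**Figure D1:**
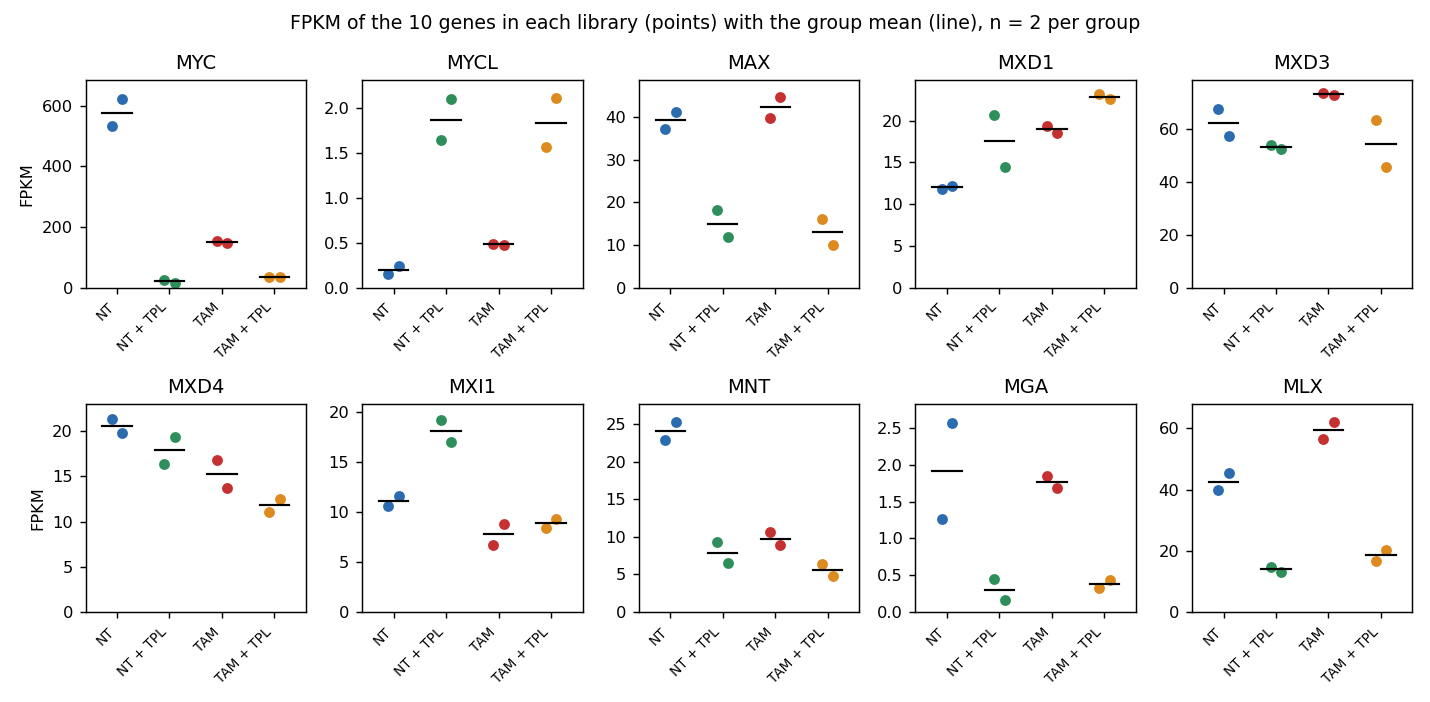
Level of each of the 10 genes in FPKM (vertical axis of each panel, starting at 0) in the NT, NT + TPL, TAM and TAM + TPL libraries, with points for the 2 libraries of a group and a line for their mean. MYC falls from above 500 FPKM in NT to below 30 in NT + TPL, MYCL is higher in all TPL libraries, and MXD3 lies between 45.60 and 73.56 FPKM throughout.

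The first question was how 4 h of TPL changed these mRNAs in NT cells. With edgeR's quasi-likelihood test and Benjamini-Hochberg adjustment over the 16948 genes, 8 of 10 members passed an adjusted p of at most 0.05, against 37.0% of all genes tested. Of these, 5 fell (background of lower genes 19.8%), namely MYC, MAX, MNT, MGA and MLX, and 3 rose (background of higher genes 17.2%), namely MYCL, MXD1 and MXI1. The study's own thresholds are stricter (adjusted p at most 0.001, fitted log2 fold change 1.2 or more in either direction). By that rule 2 members were called, MYC and MLX, both lower, against 2.71% of all genes that were called lower. Without any 1 library of the NT, TAM or TAM + TPL groups 0 members passed the stricter rule, without either NT + TPL library 1 did (MYC), and without NT replicate 2 the wider rule kept 5 (MYC, MYCL, MAX, MNT and MLX). When all entries of each gene were summed (gene ID and RefSeq accessions), 6 members passed the stricter rule (MYC, MYCL, MAX, MNT, MGA and MLX) and 8 the wider one. Only MAX has a further entry among the members, so the counts of the others were the same as before.

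MYC fell by 4.80 on the log2 scale in NT cells (SE 0.27, adjusted p = 0.000195 in edgeR, n = 2 per group), which is 27.9-fold lower. Ranked by fitted log2 fold change from the lowest, MYC was number 248 of the 16948 genes. When single libraries were dropped its log2 value ran from -5.23 to -4.46. MYCL, the paralog that was first found in lung cancer, went the other way at a low level. Its level was 0.15 and 0.24 FPKM in NT and 1.65 and 2.10 in NT + TPL, which rest on 4 and 7 counts against 44 and 48. The rise of MYCL was 3.12 on the log2 scale with an SE of 0.452 (adjusted p = 0.00279 in edgeR).

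Among the partners, MAX and MLX fell to less than 0.5 times their NT mean. MAX stood at 37.31 and 41.24 FPKM in NT and at 18.23 and 11.81 in NT + TPL, a log2 change of -1.43 with an SE of 0.266 (adjusted p = 0.00725 in edgeR). Its RefSeq entry lay at 0 and 1.01 FPKM in NT and at 0 and 3.16 in NT + TPL, and with both entries summed the value was -1.28 (SE 0.154, adjusted p = 0.00141 in edgeR). MLX stood at 39.98 and 45.33 FPKM in NT and at 14.84 and 13.11 in NT + TPL, and fell by 1.62 on the log2 scale with an SE of 0.156 (adjusted p = 0.000664 in edgeR). Both NT + TPL libraries lay below both NT libraries for each of these genes, as for 32.7% of all genes tested.

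The MAX-binding repressors split. MNT, the most widely expressed of them, went from 22.92 and 25.31 FPKM in NT to 9.26 and 6.49 in NT + TPL, and fell by 1.63 on the log2 scale with an SE of 0.211 (adjusted p = 0.00185 in edgeR). MGA, a very large protein that also carries a T-box domain, went from 1.27 and 2.57 FPKM to 0.45 and 0.16, a log2 change of -2.65 with an SE of 0.522 (adjusted p = 0.00887 in edgeR). Without NT replicate 2 the adjusted p of MGA was 0.0506. Both genes thus fell, from very different levels.
MXD1 and MXI1 rose by less than 1 on the log2 scale. MXD1, a repressor linked to differentiation, stood at 11.78 and 12.21 FPKM in NT and at 20.65 and 14.45 in NT + TPL, a log2 change of 0.54 with an SE of 0.163 (adjusted p = 0.0398 in edgeR). MXI1 stood at 10.62 and 11.53 FPKM in NT and at 19.14 and 16.97 in NT + TPL, a log2 change of 0.67 with an SE of 0.172 (adjusted p = 0.0224 in edgeR). Scaling libraries to equal GAPDH moved the median over all genes from 0.09 to -0.26. The rises of MXD1 and MXI1 were then 0.16 (adjusted p = 0.549) and 0.30 (adjusted p = 0.339) in edgeR, and neither passed. Without NT replicate 1, NT replicate 2 or NT + TPL replicate 1 neither passed (lowest adjusted p = 0.0618), and MXD1 did not pass without any other library of the TAM groups either (adjusted p = 0.0768 to 0.0798).

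MXD3 and MXD4 did not pass. MXD3 stood at 67.67 and 57.34 FPKM in NT and at 53.94 and 52.64 in NT + TPL, at a log2 change of -0.26 with an SE of 0.185 (adjusted p = 0.308 in edgeR). MXD4 stood at 21.36 and 19.77 FPKM in NT and at 16.34 and 19.37 in NT + TPL, at a log2 change of -0.21 with an SE of 0.172 (adjusted p = 0.375 in edgeR). The NT + TPL libraries were below the NT libraries for both genes, as for 32.7% of all genes tested. Scaled to equal GAPDH, MXD3 passed as lower in NT cells (-0.61, adjusted p = 0.0306 in edgeR) and in TAM cells (-0.62, adjusted p = 0.0337).

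In TAM cells the question was the same, with TAM + TPL against TAM libraries. Of 10 members, 6 passed an adjusted p of at most 0.05 in edgeR, against 33.0% of all genes. The 5 that fell were MYC, MAX, MNT, MGA and MLX (background of lower genes 18.6%), and MYCL rose (background of higher genes 14.3%). By the stricter rule MLX alone was called, against 2.04% of all genes called lower, and it was not called without any 1 library of the NT, TAM or TAM + TPL groups. With all entries of each gene summed, 3 members were called (MYC, MAX and MLX). Without TAM replicate 1, TAM replicate 2 or TAM + TPL replicate 2, 3 members passed the wider rule (MYC, MAX and MLX).

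MYC in TAM cells fell by 2.15 on the log2 scale with an SE of 0.241 (adjusted p = 0.00123 in edgeR), which is 4.45-fold lower. MLX stood at 56.59 and 62.27 FPKM in TAM and at 16.75 and 20.43 in TAM + TPL, and fell by 1.73 with an SE of 0.155 (adjusted p = 0.000593 in edgeR). MAX stood at 39.89 and 44.72 FPKM in TAM and at 16.09 and 10.10 in TAM + TPL, and fell by 1.80 with an SE of 0.269 (adjusted p = 0.00349 in edgeR). Its second entry lay at 0 and 1.87 FPKM in TAM and at 1.04 and 4.42 in TAM + TPL, and the summed value was -1.52 (SE 0.155, adjusted p = 0.000919 in edgeR). All of these treated libraries lay below the untreated ones, as for 34.7% of all genes tested.
MGA stood at 1.85 and 1.68 FPKM in TAM and at 0.33 and 0.43 in TAM + TPL, a log2 change of -2.27 with an SE of 0.512 (adjusted p = 0.0159 in edgeR). MNT stood at 10.64 and 8.89 FPKM in TAM and at 6.37 and 4.85 in TAM + TPL, a log2 change of -0.85 with an SE of 0.212 (adjusted p = 0.0229 in edgeR). MYCL stood at 0.49 and 0.48 FPKM in TAM and at 1.57 and 2.11 in TAM + TPL (13 and 12 against 43 and 63 counts), a log2 change of 2.11 with an SE of 0.421 (adjusted p = 0.0103 in edgeR). Both TAM + TPL libraries of MGA and MNT lay below the TAM libraries, as for 34.7% of all genes tested. Their calls rested on all 4 libraries of the comparison for MGA and MNT, and MYCL was lost without TAM replicate 1, TAM replicate 2 or TAM + TPL replicate 2, with adjusted p values of up to 0.108, 0.139 and 0.0661 in edgeR.

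The 4 MXD-type repressors did not pass in TAM cells. MXD1 stood at 19.38 and 18.54 FPKM in TAM and at 23.13 and 22.57 in TAM + TPL, at a log2 change of 0.22 with an SE of 0.162 (adjusted p = 0.319 in edgeR). MXI1 stood at 6.70 and 8.82 FPKM and at 8.43 and 9.30, and its groups overlapped (log2 fold change 0.13, SE 0.175, adjusted p = 0.604 in edgeR). MXD3 went from 73.56 and 73.10 FPKM to 63.29 and 45.60, at a log2 change of -0.49 with an SE of 0.185 (adjusted p = 0.0846 in edgeR). MXD4 went from 16.80 and 13.69 FPKM to 11.04 and 12.54, at a log2 change of -0.42 with an SE of 0.174 (adjusted p = 0.107 in edgeR). Both TAM + TPL libraries lay below the TAM libraries for MXD3 and MXD4, as for 34.7% of all genes tested.

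**Figure D2:**
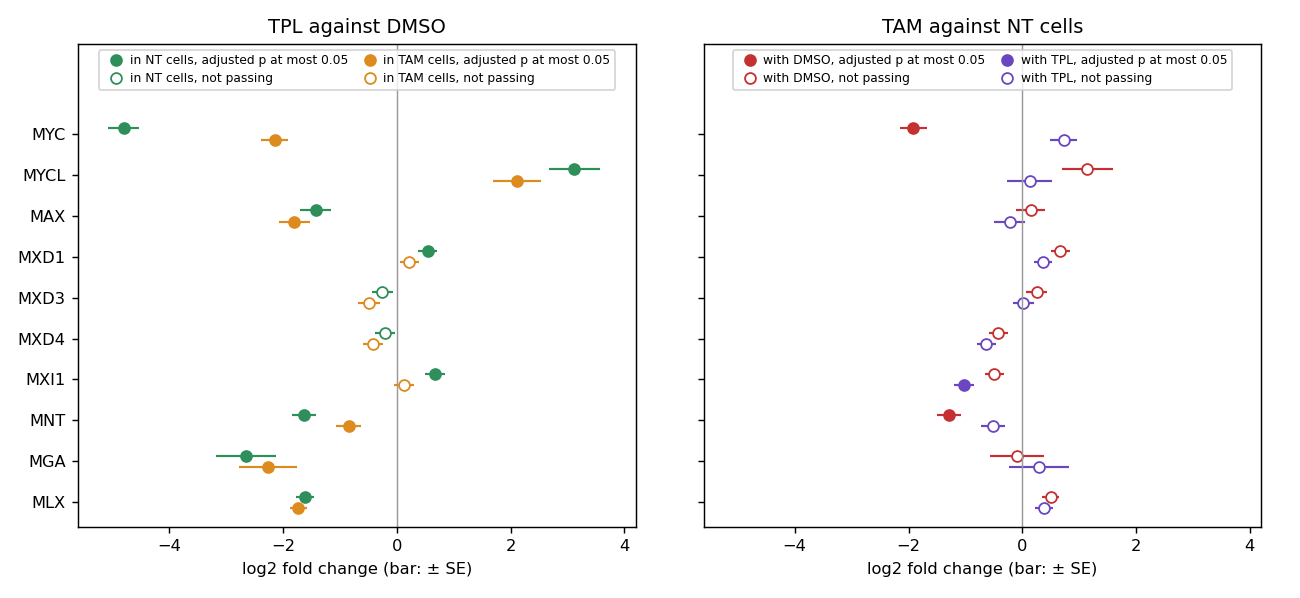
Fitted log2 fold change of each gene (horizontal axis, bars ± SE, n = 2 libraries per group) for the TPL effect in each cell state (left) and for TAM against NT cells under either incubation (right), with filled points for an adjusted p of at most 0.05. MYC lies at -4.80 in NT and -2.15 in TAM cells, and MXD1, MXD3, MXD4 and MXI1 stay within 1 of zero in the left panel.

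The next question was how transformation changed the network, by TAM against NT cells with DMSO. By the wider rule 2 members fell, MYC and MNT, against 3.39% of all genes, and 0 members passed the stricter rule (0.655% of all genes did in either direction, DESeq2 called 2 members, the fit with all entries of each gene summed called MYC, and 7 members had an unadjusted p under 0.05 in edgeR). MYC was 3.78-fold lower in TAM cells (log2 fold change -1.92, SE 0.236, adjusted p = 0.0048 in edgeR). Without TAM replicate 1 or 2 its adjusted p was 0.0539 or 0.0596. MNT had a log2 change of -1.29 with an SE of 0.209 (adjusted p = 0.0139 in edgeR) and did not pass without any 1 of the NT or TAM libraries. No MXD-type repressor passed. MXD1 had a log2 value of 0.67 (SE 0.163, adjusted p = 0.059 in edgeR, 0.0319 with all entries of each gene summed, and 0.00103 in DESeq2). MXI1 had a log2 value of -0.49 (SE 0.174, adjusted p = 0.18 in edgeR). MLX had a log2 value of 0.50 (SE 0.149, adjusted p = 0.113 in edgeR, 0.00892 in DESeq2, and up to 0.967 over the other settings). MAX differed by 0.15 (SE 0.256, adjusted p = 0.824 in edgeR). With libraries scaled to equal GAPDH, under which the median of all genes was -0.50, MXD4 (-0.88) and MXI1 (-0.96) passed as lower in edgeR.

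With TPL in both kinds of cells, 1 member passed in TAM + TPL against NT + TPL. MXI1 was lower in TAM + TPL cells (log2 fold change -1.03, SE 0.173, adjusted p = 0.0164 in edgeR, background of lower genes 4.21%), and it did not pass without NT + TPL replicate 1 or either TAM + TPL library. No member passed the stricter rule (0.596% of all genes did, DESeq2 called 0, and 5 members had an unadjusted p under 0.05). MYC had a log2 change of 0.73 with an SE of 0.238 (adjusted p = 0.132 in edgeR, and 0.00986 in DESeq2). Without NT + TPL replicate 1 this value was 1.2 with an adjusted p of 0.0134 in edgeR. MXD4 had a log2 change of -0.63 with an SE of 0.174 (adjusted p = 0.0869 in edgeR, 0.0489 with all entries of each gene summed, and 0.0121 in DESeq2).

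The difference between both TPL effects was tested as an interaction, in which 0 of 10 members passed an adjusted p of at most 0.05, against 0.165% of all genes. An unadjusted p under 0.05 was reached by 2 members, MYC and MNT. DESeq2 called MYC, as did edgeR with all entries of each gene summed (2.65, adjusted p = 0.00488). The counts of MYC itself were unchanged in that fit. For MYC the fall in TAM cells was smaller by 2.65 on the log2 scale with an SE of 0.334 (unadjusted p = 9.85e-05, adjusted p = 0.0523 in edgeR), and the adjusted p ran from 1.33e-13 (DESeq2) to 0.146 over the other settings and from 0.0208 to 0.251 with a library left out. It passed with either NT + TPL library left out, at 3.08 without replicate 1 and 2.31 without replicate 2. MNT had an interaction of 0.78 (SE 0.296, adjusted p = 0.428 in edgeR). For MLX the difference was -0.11 with an SE of 0.215, and for MAX it was -0.37 with an SE of 0.371.

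Because MYC competes with the repressors for MAX, its level was also set against theirs within each library, which does not depend on how libraries are scaled. The summed level of MXD1, MXD3, MXD4, MXI1 and MNT stayed between 94.9 and 134 FPKM in the 8 libraries. MYC over this sum was 3.96 and 4.94 in NT and 1.21 and 1.2 in TAM cells, against 0.224 and 0.137 in NT + TPL and 0.303 and 0.382 in TAM + TPL cells. By FPKM, MYC mRNA thus exceeded the summed repressor mRNA in all DMSO libraries and was below it in all TPL libraries. With expected counts in place of FPKM the ratio was 2.66 and 3.23 in NT but 0.827 and 0.83 in TAM cells, so in TAM cells MYC exceeded the sum by FPKM only. The log2 ratio differed by -4.66 between NT + TPL and NT and by -1.83 between TAM + TPL and TAM, with a pooled SD of 0.301 between replicates. MYC over MAX was 14.3 and 15.1 in NT and 1.47 and 1.27 in NT + TPL cells, while it was 3.87 and 3.31 in TAM against 2.11 and 3.59 in TAM + TPL cells. The last 2 groups overlapped, with a log2 difference of the ratio of -0.38 in TAM cells and -3.42 in NT cells. With both MAX entries summed they did not overlap, at 3.87 and 3.18 in TAM against 1.98 and 2.5 in TAM + TPL cells, and the log2 differences were -0.66 in TAM and -3.58 in NT cells. These are mRNA levels, and protein was not measured here.

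**Figure D3:**
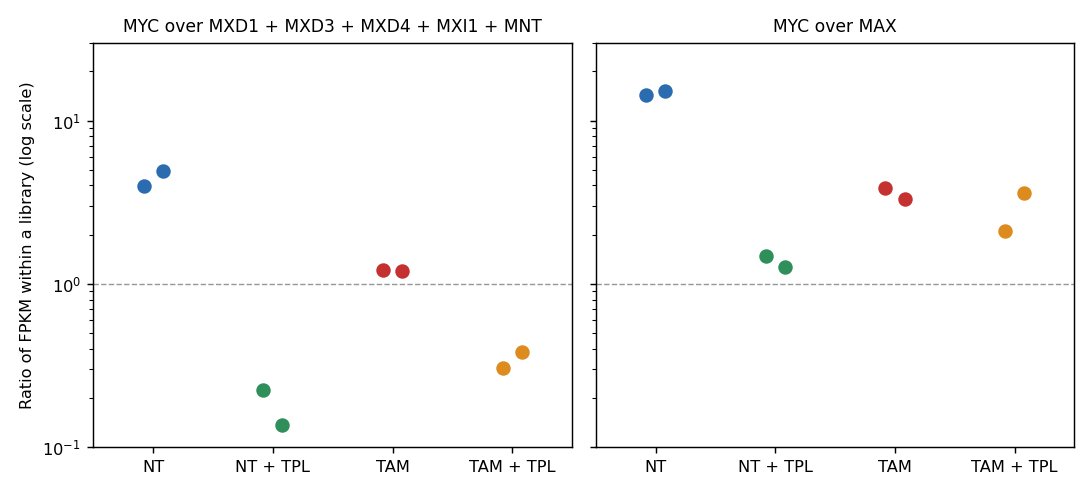
MYC FPKM divided by the summed FPKM of MXD1, MXD3, MXD4, MXI1 and MNT (left) and by the FPKM of MAX's gene ID entry (right) in each of the 8 libraries, on a log scale with a dashed line at 1. In the left panel the DMSO libraries lie at 1.2 or above and the TPL libraries at 0.382 or below, and in the right panel TAM and TAM + TPL overlap, which they do not when both MAX entries are summed.

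RNAPII over the TSS of the members was read from the peak lists, 1 per condition, on build hg19. The lists give no height or score, so only the presence and width of a peak can be described, with no test. The peak names of every list carry the replicate number 1, and the sources do not say whether a list rests on 1 replicate or on both. The peak names of the TAM list carry another threshold (0.1) than the other 3 lists (0.02), and between NT and TAM 90.2% of the genes with a peak in both lists had a narrower one in TAM, with a median width ratio of 0.696, so widths in the TAM list are given beside those of the other 3 lists, TAM + TPL included, without a comparison. Presence in the TAM list carries the same limit. A peak contained the TSS of 7 members in NT and 4 in NT + TPL cells (47.9 and 38.3% of coding genes), and of 5 members in TAM and 4 in TAM + TPL cells (42.2 and 37.5% of coding genes). Of coding genes with a mean of at least 1 FPKM, 75.3% had such a peak in NT and 60.7% in NT + TPL, and 67.0% had it in TAM and 59.8% in TAM + TPL. MYCL, MXI1 and MGA had no peak in any list, with 3, 37 and 15 annotated TSSs searched.

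MYC, on chromosome 8 with its TSS at position 128748477 on the plus strand, had the broadest peak of the members in every list but NT + TPL. In NT it ran from 128746406 to 128756005, a width of 9600 bases that covers the whole annotated gene (128747680 to 128755197). In NT + TPL it was 553 bases wide (128748347 to 128748899), from 130 bases before to 422 bases after the TSS. In TAM it was 8694 bases wide and in TAM + TPL 5306 bases wide (128748027 to 128753332). Peaks over the same gene in both NT lists had a median ratio of NT + TPL to NT width of 0.877, and 62.9% of 7313 genes were narrower in NT + TPL. Between TAM and TAM + TPL, at their unequal thresholds, the median ratio was 1.04 and 44.7% of 6762 genes were narrower. In TAM + TPL a further peak lay just upstream, at 128747213 to 128747953. The narrow NT + TPL peak thus stood beside the lowest MYC mRNA of the 4 conditions.

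MNT, on chromosome 17 with its TSS at 2304354 on the minus strand, had a peak of 2917 bases in NT and of 1195 bases in TAM and none in either TPL list, with none within 1000 bases. Of coding genes with a peak in NT, 22.9% had none in NT + TPL, and of those with a peak in TAM, 19.1% had none in TAM + TPL. MXD3 had a peak of 475 bases in NT only. MXD4 had 1 of 588 bases over its TSS in NT only, and in the other lists a peak lay 308 to 343 bases upstream of its TSS. Whether the NT list held a further peak upstream of MXD4 was not looked for. The mRNA of MNT fell with TPL in both kinds of cells, and that of MXD3 and MXD4 did not pass.

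MAX, MLX and MXD1 had a peak over the TSS in all 4 lists. The MAX peak, on chromosome 14, was 354 bases wide in NT and 248 in NT + TPL, with 183 bases in TAM, and 253 bases in TAM + TPL. The MLX peak, around 40719118 on chromosome 17, was 960 bases wide in NT and 884 in NT + TPL, with 855 bases in TAM, and 400 bases in TAM + TPL. The CACGTG printed for MLX began 50 bases before the TSS, and the MLX peaks began 409, 290, 298 and 236 bases before it, so this word lay within a listed peak in all 4 lists. The MXD1 peak, around 70142241 on chromosome 2, was 776 bases wide in NT and 1568 in NT + TPL, with 1677 bases in TAM, and 1264 bases in TAM + TPL. In NT a separate peak stood 332 bases before the MXD1 TSS, at 70141050 to 70141909, a stretch that the MXD1 peaks of the other lists cover for the most part. MAX and MLX mRNA fell while their peaks stayed listed.

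**Figure D4:**
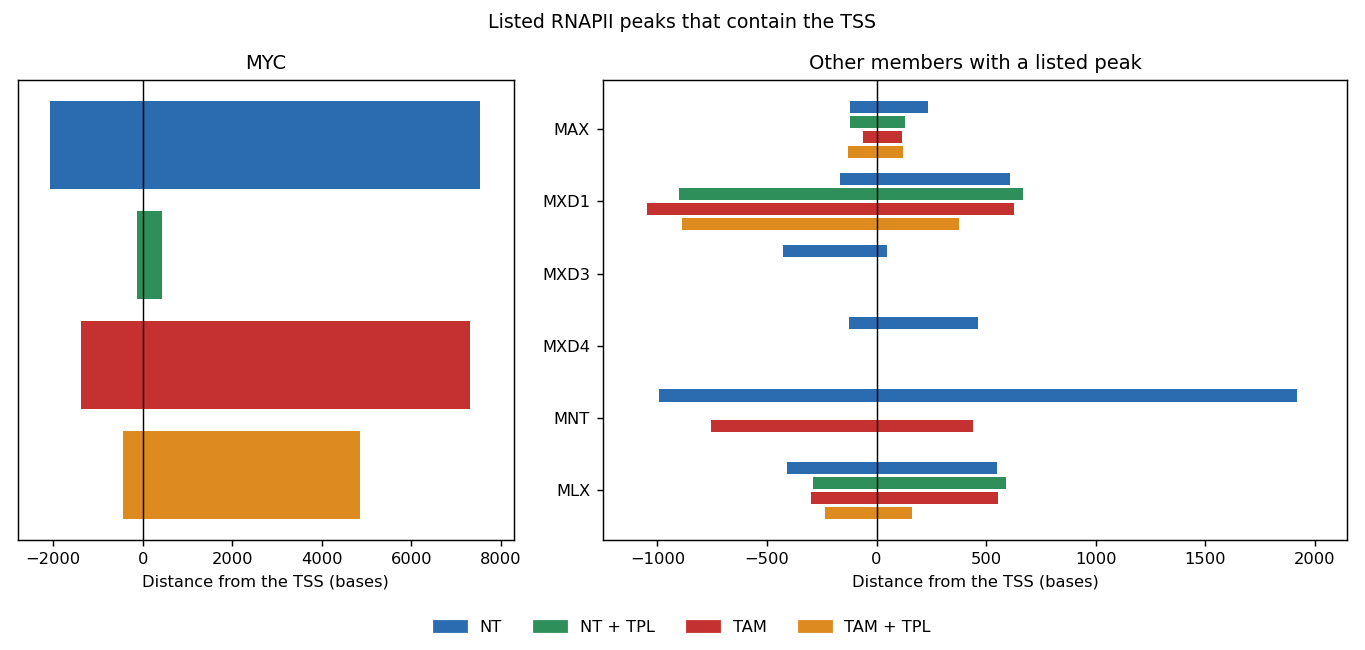
Extent of the listed RNAPII peak that contains the TSS, in bases from the TSS (negative upstream), for MYC (left) and the 6 other members with a listed peak (right), with 1 bar for each condition in which a peak was listed. The MYC peak is 9600 bases wide in NT and 553 in NT + TPL, and MNT has a bar in NT and TAM only.

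Of partners outside the 10 genes, 4 were tested, and MYCN and MLXIPL (ChREBP) were not analysed here. MLXIP, which encodes MondoA, stood at 16.77 and 18.51 FPKM in NT and 17.72 and 17.25 in NT + TPL, and its log2 fold changes were -0.02 in NT (adjusted p = 0.948 in edgeR) and 0.12 in TAM cells (adjusted p = 0.647). MYCBP2, a very large ubiquitin ligase that binds MYC, fell in NT cells (-0.84, adjusted p = 0.0244) and had a value of -0.06 in TAM cells. This call was lost with limma, in the fit of the 2 groups compared, and without NT replicate 2, NT + TPL replicate 2 or either TAM + TPL library (adjusted p up to 0.132 in edgeR). MYCBP, a small MYC-binding protein, had -0.22 in NT cells and fell in TAM cells (-0.71, adjusted p = 0.0498), a call that was lost without any 1 library. PVT1, the long noncoding RNA next to MYC, did not pass in either kind of cell (-0.15 and -0.54). It stood at 17.49 and 16.36 FPKM in NT and 13.18 and 17.36 in NT + TPL.

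Cofactors that MYC and MXD proteins recruit mostly fell or did not pass. Of 13 tested, 8 fell in NT cells and 7 in TAM cells and 0 rose, with median log2 fold changes of -0.66 and -0.92 against 0.09 and 0.05 over all genes. The shares of all genes that fell were 19.8% in NT and 18.6% in TAM cells, and those that rose were 17.2 and 14.3%. With a library left out, 4 to 7 fell in NT and 3 to 8 in TAM cells. WDR5, a chromatin platform that anchors MYC, went from 24.87 and 25.15 FPKM in NT to 9.86 and 9.37 in NT + TPL (log2 fold change -1.39, adjusted p = 0.0006 in edgeR) and from 24.43 and 21.65 in TAM to 9.34 and 9.04 in TAM + TPL (-1.38, adjusted p = 0.000707). HDAC2, a deacetylase of the corepressor complex that MXD proteins recruit, fell in both (-1.30 and -1.14), as did the acetyltransferase KAT5 (-1.99 and -2.87). TRRAP, the scaffold of acetyltransferase complexes, fell in NT cells (-2.10, adjusted p = 0.00754) and had -1.14 in TAM cells (adjusted p = 0.0593, and 0.0166 with all entries of each gene summed).

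Genes that act on MYC protein turnover showed no common direction. Of 14 tested, 2 rose and 4 fell in NT cells, 1 rose and 4 fell in TAM cells, and the medians were -0.22 and -0.35. Over all genes 17.2% rose and 19.8% fell in NT cells, and 14.3% rose and 18.6% fell in TAM cells. With a library left out 1 to 5 fell in NT and 3 to 5 in TAM cells, and the medians ran from -0.49 to -0.21 and from -0.61 to -0.10. CRY2, a circadian repressor that also acts in MYC turnover, went from 2.38 and 2.56 FPKM in NT to 10.9 and 9.41 in NT + TPL (log2 fold change 2.01, adjusted p = 0.000458 in edgeR) and from 1.75 and 1.97 in TAM to 8.99 and 8.08 in TAM + TPL (2.14, adjusted p = 0.000442). It was the 1 gene of this list past the stricter rule in each kind of cell. The ligase subunits FBXL14 (-1.52 and -1.89) and SKP2 (-0.88 and -0.79) and the deubiquitinase USP28 (-1.33 and -1.23) fell in both. Without NT replicate 2 FBXL14 and SKP2 were lost in NT cells (adjusted p = 0.0576 and 0.0513 in edgeR), and SKP2 was lost in TAM cells without any 1 TAM or TAM + TPL library (up to 0.0900). AURKA, a mitotic kinase that also stabilises MYC family proteins, had 0.00 in NT cells (adjusted p = 0.996) and fell in TAM cells (-1.59, adjusted p = 0.00298), where it stood at 13.46 and 17.23 FPKM with DMSO against 4.4 and 5.33 with TPL. AURKA was higher in TAM than in NT cells with DMSO (2.01, adjusted p = 0.00367 in edgeR).

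MYC-MAX induced targets, mainly genes of ribosome production, mostly fell. Of 62 tested, 44 fell and 0 rose in NT cells and 45 fell and 0 rose in TAM cells, with median log2 fold changes of -1.04 and -1.06. Among all genes tested, 19.8% fell and 17.2% rose in NT cells, and 18.6% fell and 14.3% rose in TAM cells. In all, 39 passed in both, 5 in NT and 6 in TAM cells alone and 12 in neither. By the stricter rule 11 fell in NT and 10 in TAM cells, against 2.71 and 2.04% of all genes called lower. With a library left out 33 to 47 fell in NT cells and 31 to 49 in TAM cells, with libraries scaled to equal GAPDH 50 and 44 fell, and with all entries of each gene summed 49 fell in each and 1 rose in NT cells. The largest falls in NT cells were those of SLC19A1, the folate carrier (-2.93), WDR43 (-2.57), a ribosome assembly factor, and MYBBP1A (-2.29), a nucleolar protein. SLC19A1 went from 7.48 and 8.97 FPKM in NT to 0.79 and 1.4 in NT + TPL. In TAM cells they were those of DCTPP1, a nucleotide pyrophosphatase (-3.06), NDUFAF4, a complex I assembly factor (-2.68), and WDR43 (-2.57). DCTPP1 went from 44.8 and 45.57 FPKM in TAM to 5.44 and 5.75 in TAM + TPL, and its RefSeq entry reached 0.96 FPKM in 1 library and was at 0 in the others. CAD is named because most of its signal in NT and TAM cells stood under a RefSeq accession. By gene ID it did not pass (-0.53 in NT and 0.06 in TAM cells). With both entries summed it fell in NT (-1.62, adjusted p = 8.66e-05 in edgeR) and TAM cells (-1.10, adjusted p = 0.00108).

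**Figure D5:**
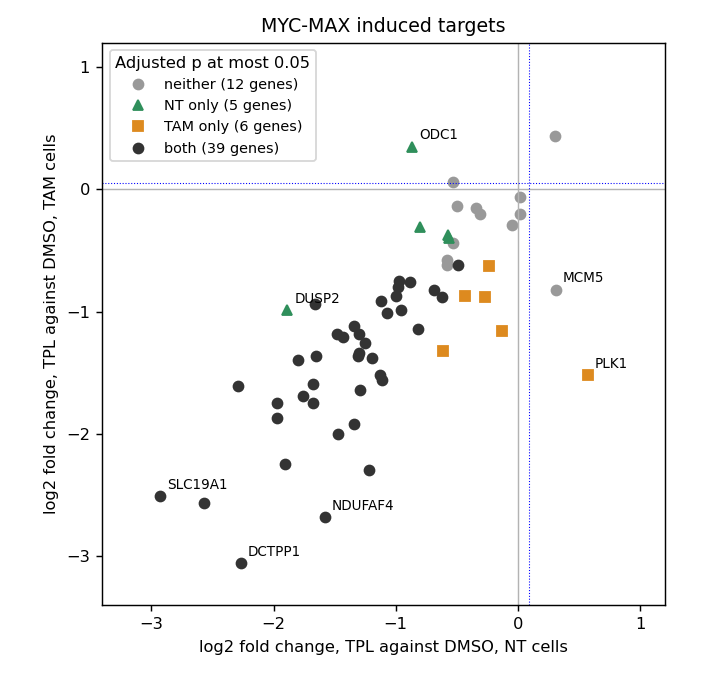
Fitted log2 fold change with TPL in NT cells (horizontal axis) and in TAM cells (vertical axis) for the 62 MYC-MAX induced targets tested, marked by where the adjusted p was at most 0.05, with dotted lines at the median of all genes (0.09 and 0.05). Most points lie in the lower left, with 55 of 62 negative in both by gene ID entries, and PLK1 and ODC1 lie off the diagonal.

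Between TAM and NT cells with DMSO, where MYC itself was lower, 57 of the 62 targets did not pass. Of the others, 4 were higher, namely MCM4 (0.98), MCM5 (1.87), PLK1 (2.19) and PLK4 (1.74), which act in DNA replication and mitosis, and 1 was lower, DUSP2 (-1.46), a nuclear phosphatase. These 5 were named after their values were seen. Over all genes 3.46% were higher and 3.39% lower in this comparison. Without any 1 NT or TAM library 1 target was higher and 0 were lower, and with libraries scaled to equal GAPDH 1 was higher and 10 were lower (median -0.59). PLK1 went from 4.77 and 4.99 FPKM in NT to 23.6 and 20.37 in TAM (adjusted p = 0.00131 in edgeR). The median over the list was -0.13, against -0.03 over all genes.

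Of genes that MYC is known to repress, 4 were tested, and CDKN2B was too low to test. CDKN1A, the p21 cell cycle inhibitor, rose in NT (1.56, adjusted p = 0.00105 in edgeR) and TAM cells (1.02, adjusted p = 0.0056). It stood at 91.1 and 93.14 FPKM in NT against 315.49 and 233.91 in NT + TPL, and at 77.56 and 78.76 in TAM against 181.16 and 143.29 in TAM + TPL. CDKN1B, another inhibitor of cyclin-dependent kinases, did not pass (-0.76 in NT, adjusted p = 0.0603, and -0.52 in TAM cells), though it did in NT cells with all entries of each gene summed (adjusted p = 0.0313 in edgeR). GADD45A, a growth arrest gene, fell in NT cells (-0.97, adjusted p = 0.0076) and had 0.21 in TAM cells. NDRG1, a stress gene, rose in NT cells (0.66, adjusted p = 0.022) and had -0.40 in TAM cells (adjusted p = 0.103). Its rise was lost with libraries scaled to equal GAPDH (0.28, adjusted p = 0.274 in edgeR), in the fit of the 2 groups compared, and without NT replicate 1, NT replicate 2 or NT + TPL replicate 1 (adjusted p up to 0.119). Of the targets of MondoA and MLX, ARRDC4 fell in NT cells (-1.26, adjusted p = 0.0324) and had 0.38 in TAM cells. The fall was lost in the fit of the 2 groups compared and without any 1 NT, NT + TPL or TAM + TPL library (adjusted p up to 0.157 in edgeR). TXNIP by its gene ID entry did not pass in either (-1.03, adjusted p = 0.399, and 0.21), with NT + TPL replicates at 4.23 and 0.3 FPKM. Most of its signal in NT and TAM cells stood under a RefSeq accession, however. With both entries summed TXNIP was at 11.85 and 16.29 FPKM in NT against 6.48 and 2.27 in NT + TPL, and at 21.93 and 25.86 in TAM against 13.31 and 16.13 in TAM + TPL. In the fit of summed entries it fell in NT cells (-1.67, SE 0.371, adjusted p = 0.00391 in edgeR) and had -0.69 in TAM cells (adjusted p = 0.12).

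The 5 genes whose levels were most like those of MYC, by Pearson's r of log2(FPKM + 1) over the 8 libraries among 14134 genes, were FOXN2 (0.995), MLPH (0.995), SAE1 (0.992), CAB39 (0.991) and ARMC5 (0.989). The libraries share the treatment and the cell state, so these values describe a common order of 4 conditions. FOXN2, a forkhead factor, stood at 10.17 and 12.59 FPKM in NT against 1.34 and 0.5 in NT + TPL, and at 4.66 and 5.15 in TAM against 1.13 and 1.33 in TAM + TPL. CAB39, a scaffold of the kinase LKB1, stood at 47.37 and 58.75, 17.05 and 13.16, 30.58 and 32.0, and 15.08 and 17.44 FPKM in the order just given.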

How the data were processed

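Of 18 samples, 8 RNA-Seq libraries and the peak lists of the ChIP-Seq samples were used. From poly-A RNA, the authors mapped reads onto reference transcripts using Bowtie2 and deposited expected counts (estimated reads per gene, not normalized) and FPKM from RSEM, 1 file per library. The authors aligned the ChIP reads to hg19, called RNAPII peaks over input with MACS and kept peaks that contain a TSS, and the deposited lists give start and end only (unit other: no score, height or count). The methods name SOAP2 as the ChIP aligner and the labels list BWA. A gene missing from a file had no read and was taken as 0. Symbols were matched by gene ID for 21077 genes and by accession for 2384, and 143 were not matched. The gene ID entry was used, and an alternative chosen after seeing the data summed all entries of a gene. A gene without a further entry, such as every member but MAX, kept its counts there. Its result could change only through the fit shared by all genes.

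The quasi-likelihood test of edgeR 4.0.16 (R 4.3.3) was run on rounded expected counts with TMM scaling and edgeR's low-count filter. All 4 groups shared 1 fit over 16948 genes, and p was adjusted by Benjamini-Hochberg. Scaling factors were 0.975 to 1.03, the biological coefficient of variation was 0.315 and the depth was 7461309 to 8349448 counts. The words rose and fell mean an adjusted p of at most 0.05. The alternatives were DESeq2 1.42.0, limma 3.58.1 on log2(FPKM + 1) and log2(FPKM + 0.1), other scalings and filters, a replicate block, a fit of the 2 groups compared and leaving out each library. TSSs are those of GENCODE release 44 on GRCh37, the build of the peaks. The fit was tested on simulated data. Summaries used Python 3.11.15 with pandas 2.3.3 and numpy 2.4.6, and plots used matplotlib 3.10.9.

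The members, the pathway lists and the markers were chosen with earlier results of these data known. All members, partners, repressed and MondoA targets are named. Of each other list, the text names up to 3 genes each at the top and bottom of the fitted log2 fold change among those passing in a TPL comparison with a mean of at least 1 FPKM and groups that do not overlap, other than 1 gene that, like 1 promoter sequence, is not reported here. The lists are in part small, and their counts are descriptions. The number of replicates limits the precision, and p-values measure the spread between 2 cultures per group.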

Additional observations from a re-analysis of the deposited data

Results flagged for a closer look

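MYC drew attention because its order between cell states turned over. The log2 fold change of TAM against NT cells was -1.92 with DMSO (adjusted p = 0.0048 in edgeR) and 0.73 with TPL. The contrast with TPL did not pass by itself in edgeR (adjusted p = 0.132), while DESeq2 gave 0.76 (adjusted p = 0.00986). The difference between the contrast with TPL and that with DMSO was 2.65 on the log2 scale and was tested as an interaction. It had an adjusted p of 0.0523 in edgeR, and of 0.00488 with all entries of each gene summed. MYC has no second entry, so its own counts were the same in both fits. NDRG1 drew attention because both treated libraries lay above the untreated ones in NT cells and below them in TAM cells. The difference between its TPL effects was -1.06 on the log2 scale, with an adjusted p of 0.201 in edgeR. In the main edgeR fit by gene ID entries neither passed an adjusted p of 0.05. Other fits of the same entries passed for MYC, namely DESeq2 (adjusted p = 1.33e-13) and limma (0.033 and 0.0471). So did edgeR with at least 10 counts in every library (0.00507) or with no filter (0.0356). Over all other settings the highest for MYC was 0.146. For NDRG1 the adjusted p ran from 0.00226 to 0.408 over the other settings. The cause was not tested.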

How the results depend on the processing

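The count of members past the stricter rule depended on the setting. For TPL in NT cells (2 members) it was 6 with DESeq2, 6 with all entries of each gene summed, and 0 with the replicate block or in the fit of the 2 groups compared. For TPL in TAM cells (1 member) it was 4 with DESeq2, 3 under a minimum of 10 counts everywhere, 3 with all entries summed, 2 with no filter on low counts, and 0 with GAPDH scaling or the replicate block. For TAM against NT with DMSO (0 members) it was 2 with DESeq2, 1 with at least 10 counts and 1 with all entries summed. By the wider rule and with all libraries, the counts for TPL in NT and TAM cells stayed within 1.5 times of 8 and 6. TAM against NT with DMSO (2 members) gave 4 with DESeq2 and 4 with GAPDH scaling, and with TPL (1 member) gave 3 with DESeq2, 2 with all entries summed and 0 in the fit of 2 groups. The interaction (0 members) gave 1, MYC, with DESeq2 under both rules, and 1 at 0.05 with all entries summed, with no filter, with at least 10 counts, and with limma on log2(FPKM + 1) or log2(FPKM + 0.1).

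When single libraries were dropped, the stricter counts ran from 0 to 1 for TPL in NT cells, from 0 to 2 for TPL in TAM cells and from 0 to 1 for TAM against NT with DMSO. The wider counts ran from 5 to 8, from 3 to 6 and from 0 to 3 in the same comparisons, from 0 to 2 for TAM against NT with TPL and from 0 to 1 for the interaction. The log2 ratio of MYC to its antagonists ran from -5.01 to -4.30 for TPL in NT cells and from 0.60 to 1.31 between the TPL groups, and with MAX as the divisor it was -3.42 for TPL in NT and -0.38 in TAM cells, or -3.58 and -0.66 with both MAX entries summed. A group then holds 1 library, which is assumed to vary like the others.

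The sign turned in 37 cases, none of which passed in either setting. Under GAPDH scaling these were MYCL (-0.09, TAM against NT with TPL), MAX (-0.33, with DMSO), MXD3 (-0.21 with DMSO and -0.23 with TPL), MXD4 (0.02) and MLX (0.15) in the interaction, and MLXIP (-0.01) for TPL in TAM and AURKA (-0.35) in NT cells. With at least 10 counts they were MLXIP (0.05, NT cells) and MYCBP2 (0.02, TAM cells), and with no filter AURKA (-0.02). With all entries summed it was TXNIP (-0.69, TAM cells). With limma they were MYCL (-0.02 and -0.03) and AURKA (-0.03 and -0.04). When single libraries were dropped, TPL in NT cells gave -0.10 to 0.04 for MLXIP, -0.39 to 0.07 for PVT1 and -0.15 to 0.16 for AURKA, and TPL in TAM cells gave -0.07 to 0.33 for MXI1, -0.12 to 0.38 for MLXIP, -0.22 to 0.11 for MYCBP2 and -0.15 to 0.50 for TXNIP. MGA ran from -0.51 to 0.48 in TAM against NT with DMSO, and with TPL MYCL ran from -0.06 to 0.35, MAX from -0.54 to 0.17, MXD3 from -0.23 to 0.28 and MGA from -0.25 to 1.25. The interaction ran from -0.51 to 0.00 for MXD3, from -0.19 to 1.32 for MGA and from -0.26 to 0.01 for MLX.

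Deviations of same-numbered libraries correlated at -0.135 to 0.05, so no pairing by replicate number was visible across genes. These values cannot tell whether same-numbered cultures were handled together. With the replicate block 7 members passed an adjusted p of 0.05 for TPL in NT cells (MXD1 was lost, adjusted p = 0.0543 in edgeR) and 6 in TAM cells. No depth is known for the peak lists.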
